A study of Mus musculus with 6 samples.

Results

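The 6 genes described here encode subunits of voltage-gated sodium channels: the auxiliary beta subunits Scn2b, Scn3b and Scn4b and the pore-forming alpha subunits Scn4a, Scn7a and Scn9a. They were taken by name from the 54385 rows of the count table. Scn4b ranked 1 of 18092 annotated genes tested when genes were ordered by the p-value of the genotype comparison, and the other members were added as its relatives. Values of the genotype comparison are therefore given for the members as a description, with no test. All 6 rows held at least 1 count, and 4 of 6 (Scn3b, Scn4b, Scn4a and Scn7a) passed the filter on low counts, which left 18114 rows.

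The RNA came from interscapular brown fat of mice of the C57BL/6N strain, 20 weeks old, in 3 wild-type libraries (genotype wt/wt) and 3 libraries labelled ADCY3∆AT. Both genotypes ate chow up to 8 weeks of age, then high-fat food over 12 weeks, with 24 h in the cold (4 °C). The series text writes ADCY3∆AT out as Adcy3-AT KO and names a truncated adenylyl cyclase 3 (cyclic AMP is the product of this enzyme). The labels name no Cre driver, and they do not say whether a library is 1 animal. The p-values below then measure the spread between these libraries, which may be technical. The series text calls the depot inguinal and every sample label calls it interscapular.

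Library totals ranged from 44826777 to 54933588 estimated counts. The Adcy3 row had 651.9 to 727.8 CPM (counts scaled to a common library size with TMM factors) in wild type and 341.9 to 505.6 CPM in ADCY3∆AT. A row outside the annotation whose identifier ends in the same digits had 477.4 to 628.6 CPM in wild type and was listed at 0 in every ADCY3∆AT library. Ucp1, the uncoupling protein that defines brown fat, had 10327 to 10647 CPM in wild type, against 9972 to 10243 CPM in ADCY3∆AT. Its log2 fold change was -0.06 ± 0.04 (SE of the edgeR fit). All 13 brown adipocyte markers were detected at 1 CPM or more in at least 3 libraries. The summed level of 24 skeletal muscle markers separated the genotypes, at 1821 to 4752 CPM in wild type, against 255.2 to 953.2 CPM in ADCY3∆AT. Over all genes, edgeR called 1 of 18114 rows (0.00552%), the row outside the annotation, DESeq2 called 1.15% of 19977 and limma voom called 0.011%.

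A voltage-gated sodium channel is built around a large alpha subunit that forms the pore and senses the voltage. Small beta subunits, single-pass membrane proteins with an immunoglobulin-like domain outside the cell, bind to it, adjust its gating and trafficking, and act in cell adhesion. These channels carry the rising phase of the action potential in nerve and muscle. Brown fat is supplied by sympathetic nerves and lies against skeletal muscle, so the tissue holds several cell types in which one or another subunit is known.

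The windows before the RefSeq start sites of the members differ in base composition, which the choice of genes did not use. RefSeq (GRCm38.p6) gave a window of 250 bases before the start site for 5 of 6 members. The stretch of each window that no annotated exon of the gene covers is shown for the beta subunit that differed between genotypes (Scn4b), its neighbour on the chromosome (Scn2b), and the 2 alpha subunits with the highest levels (Scn7a and Scn4a). The strand is that of the gene, 5′ to 3′, and capitals mark a match to the E-box CAGCTG.
Scn4b, chr9:45138374-45138394, plus strand: gtcgtccgcagcgggcaagcc
Scn2b, chr9:45117626-45117781, plus strand: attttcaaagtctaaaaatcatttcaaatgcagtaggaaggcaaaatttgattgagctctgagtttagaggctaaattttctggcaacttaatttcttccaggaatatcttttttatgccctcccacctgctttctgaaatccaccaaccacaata
Scn7a, chr2:66784915-66785160, minus strand: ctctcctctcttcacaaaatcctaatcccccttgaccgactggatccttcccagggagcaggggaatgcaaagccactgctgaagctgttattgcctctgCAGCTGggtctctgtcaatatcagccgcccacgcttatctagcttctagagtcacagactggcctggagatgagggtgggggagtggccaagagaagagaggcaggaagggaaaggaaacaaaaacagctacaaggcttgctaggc
Scn4a, chr11:106349391-106349454, minus strand: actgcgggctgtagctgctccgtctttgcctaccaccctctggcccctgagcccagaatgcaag

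Annotated exons of the gene cover much of some windows, 229 of 250 bases for Scn4b, 186 for Scn4a, 94 for Scn2b and 4 for Scn7a, since the RefSeq start lies inside the gene as GENCODE M21 annotates it, so the values below describe mostly exon for Scn4b and Scn4a. The Scn4b window was rich in CpG dinucleotides, with 23 in 250 bases, an observed to expected ratio of 0.86 and 66.0% G+C. That ratio was above those of 85.4% of the 32851 windows in the table, whose median was 0.37. Scn2b lay at the other end, with 1 CpG, a ratio of 0.12 and 38.4% G+C. Scn4a and Scn7a both had a ratio of 0.17, and Scn9a had 0.27. Motifs were searched on both strands in the 250 bases: the E-box CAGCTG (held by 13% of all windows), the MEF2 core, CTA and TAG with any 4 bases between them (3.2%), the cyclic AMP response element half-site TGACG (17.8%), the RE1 half-site TTCAGCACC (0.301%) and the TATA box TATAAA (12.4%). A TATA box can overlap a MEF2 core, and the motifs were counted without regard to overlap. The single match among the 5 windows was the E-box of Scn7a, which began 150 bases before the start. The absence of a match says only that these letters are not in this window.

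Scn4b (ENSMUSG00000046480) codes for protein and spans 45138395 to 45154152 of chromosome 9 (GRCm38, plus strand), with 5 exons and no overlapping gene in GENCODE M21. Its product joins the alpha subunit through a disulfide bond and is known for its part in resurgent sodium current. Scn4b had 39.5, 38.6 and 40.8 CPM in wild type, against 28.3, 29.1 and 26.8 CPM in ADCY3∆AT. The 2 genotypes did not overlap, with ADCY3∆AT the lower, and the lowest value belonged to ADCY3∆AT replicate 3. The wild-type mean was 39.6 ± 1.1 CPM (SD, n = 3) and that of ADCY3∆AT was 28.0 ± 1.2 CPM (SD, n = 3), a ratio of 0.708. The log2 fold change was -0.50 ± 0.05 (SE of the edgeR fit). The fold itself was of moderate size among all genes, since 8.67% of the genes tested differed by as much or more in either direction. The replicates were close, with the highest wild-type library 1.06 times the lowest and the highest ADCY3∆AT library 1.09 times the lowest. A choice by p-value favours such closeness.

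**Figure D1:**
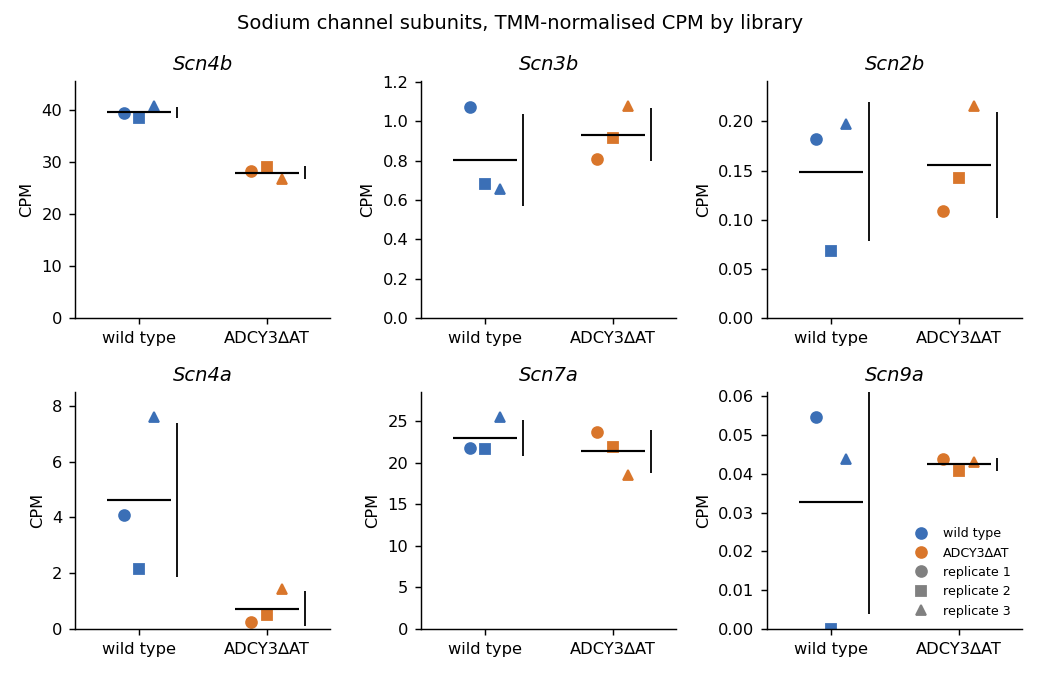
TMM-normalised CPM of the 6 subunits in each library, on linear axes that start at 0 and differ between genes. Symbols are libraries, horizontal lines are means and vertical lines are 1 SD on either side, not drawn under 0. The ADCY3∆AT libraries of Scn4b sit at 26.8 to 29.1 CPM under the wild-type libraries at 38.6 to 40.8 CPM, and those of Scn4a also lie under all wild-type libraries, while the other members overlap.

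Scn3b and Scn2b were present at far lower levels. Scn3b (ENSMUSG00000049281; chromosome 9, 40269217 to 40291618, plus strand, 7 exons in its longest transcript), which binds the alpha subunit without a covalent bond, had 1.08, 0.68 and 0.66 CPM in wild type, against 0.81, 0.91 and 1.08 CPM in ADCY3∆AT. The groups overlapped, and wild-type replicate 1 was as high as the highest ADCY3∆AT library. The log2 fold change was 0.20 ± 0.28 (SE). Without wild-type replicate 1 it was 0.48, and without wild-type replicate 3 it was 0.08.

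Scn2b (ENSMUSG00000070304; chromosome 9, 45117782 to 45130070, plus strand, 4 exons), the other beta subunit that forms a disulfide bond with the pore, had 10, 3 and 9 counts in wild type and 5, 7 and 10 counts in ADCY3∆AT. It did not pass the filter on low counts. The sums were 22 counts in each genotype, a ratio of 1.02 after scaling, with an exact 95% interval of 0.54 to 1.94 that covers counting error only. A difference within that interval was not detectable at this depth.

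The 3 alpha members ranged from a well detected gene to one at the limit of counting. Scn7a (ENSMUSG00000034810; chromosome 2, 66673425 to 66784914, minus strand, 25 exons) encodes an atypical alpha subunit that responds to extracellular sodium and is known from glia, Schwann cells and sodium-sensing brain regions. It had 21.8, 21.7 and 25.5 CPM in wild type, against 23.7, 21.8 and 18.6 CPM in ADCY3∆AT. The groups overlapped, with the highest library in wild type (replicate 3) and the lowest in ADCY3∆AT (also numbered 3). The log2 fold change was -0.11 ± 0.10 (SE), and it was -0.01 without ADCY3∆AT replicate 3 and -0.03 without wild-type replicate 3.

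Scn4a (ENSMUSG00000001027; chromosome 11, 106318592 to 106353288, minus strand, 24 exons in its longest transcript) encodes the sodium channel of skeletal muscle fibres. It had 4.10, 2.16 and 7.59 CPM in wild type, against 0.24, 0.51 and 1.44 CPM in ADCY3∆AT, from 95 to 347 counts and from 11 to 67 counts. The groups did not overlap, yet they spread widely: the highest library was 3.52 times the lowest in wild type and 5.99 times in ADCY3∆AT. The log2 fold change was -2.66 ± 0.62 (SE), and became -2.10 when wild-type replicate 3 was left out and -3.60 when ADCY3∆AT replicate 3 was. Scn4b and Scn4a were thus the 2 of 6 members whose ADCY3∆AT libraries all lay below wild type. Over all genes tested this held for 8.83%, and 7.68% lay above wild type in the same way. The members were chosen from this comparison, so nothing is read from that count.

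Scn9a (ENSMUSG00000075316; chromosome 2, 66480080 to 66634962, minus strand, 27 exons in its longest transcript), the channel of sensory and sympathetic neurons known for its role in pain, had 3, 0 and 2 counts in wild type and 2 counts in each ADCY3∆AT library. No library exceeded 3 counts, the upper limit that a count of 0 allows. The ratio of the summed counts was 1.23, with an exact 95% interval of 0.312 to 5.08. The antisense gene Gm13629 and 2 further rows that overlap Scn9a held 0 counts, as did the single genes that overlap Scn2b and Scn3b. The sources used here do not say whether counting used strand.

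Levels of different genes were compared per length, as TPM (a share of all transcripts, corrected for length) from the rounded counts and the summed length of each gene's exons. In wild type the order of the members was Scn4b at 11.1 ± 1.0 TPM, Scn7a at 4.39 ± 0.64, Scn4a at 0.94 ± 0.60, Scn3b at 0.21 ± 0.06, Scn2b at 0.046 ± 0.023 and Scn9a at 0.0037 ± 0.0032 TPM (SD, n = 3). The wild-type ranges of neighbours in this order did not overlap. Of other subunits of the family, Scn2a, Scn3a and Scn8a lay between 0.0185 and 0.0478 TPM, Scn11a at 0.0017 TPM, and Scn1a and Scn10a were listed at 0 in all libraries.

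The order differed in ADCY3∆AT at the place of Scn4a, which had 0.15 ± 0.12 TPM and came after Scn3b at 0.24 ± 0.03 TPM (SD, n = 3 each). Its range overlapped those of both Scn3b and Scn2b. Scn4b had 7.98 ± 0.49 TPM and was still above Scn7a, at 4.13 ± 0.53 TPM, with no overlap between them.

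**Figure D2:**
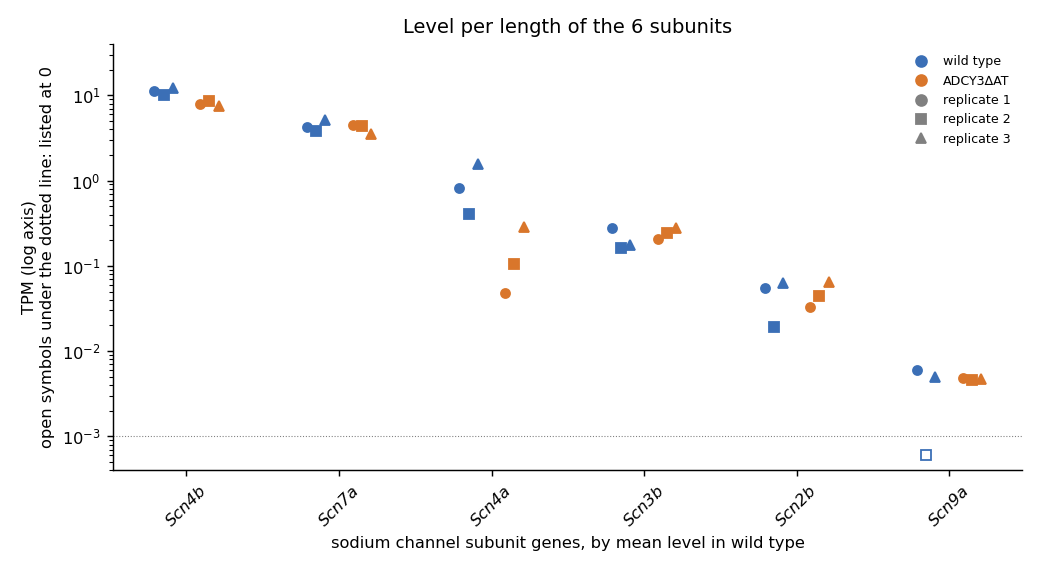
TPM of the 6 subunit genes in each library, on a log axis, ordered by the wild-type mean. An open symbol under the dotted line is a value listed at 0. Scn4b and Scn7a stand above 3 TPM in every library, and of the 6 genes Scn4a has the widest gap between the genotype means.

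Both members that were lower in ADCY3∆AT were set beside the skeletal muscle markers, which separated the same libraries. The log2 fold change was negative for all 24 muscle markers (median -3.12), beside 0.004 over all genes. In 23 of them the ADCY3∆AT libraries lay below all wild-type libraries, as in 8.83% of all genes tested. None passed in edgeR (23 at an unadjusted p under 0.05, beside 11% of all genes) or in limma voom, DESeq2 called 3, and edgeR without the low-count filter called 17. No muscle marker was at 0 in all libraries. Scn4a put the 6 libraries in the same order as the muscle sum. It amounted to 1.52, 1.18 and 1.60 CPM per 1000 CPM of the muscle list in wild type, against 0.94, 0.78 and 1.51 CPM per 1000 in ADCY3∆AT. These ratios overlapped between the genotypes, with means of 1.44 ± 0.22 and 1.08 ± 0.38 (SD, n = 3 each), while Scn4a itself had a ratio of 0.158 between the means. The marker whose groups overlapped was Mb, with 354.1 to 423.5 CPM in wild type. In ADCY3∆AT, Mb made up 223.3 of 255.2 CPM of the sum in replicate 1, 362.6 of 650.0 in replicate 2 and 359.2 of 953.2 in replicate 3. The ADCY3∆AT ratios thus rest in large part on Mb, and ratios without it were not computed. Their overlap with wild type is therefore not read as Scn4a scaling with muscle RNA. In ADCY3∆AT replicate 1, Ttn had 1.84 CPM and Ckm was listed at 0, while Scn4a had 0.24 CPM. In bulk tissue, fewer cells of a type and less RNA per cell cannot be told apart.

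Within each genotype Scn4b varied less than the muscle sum. Its choice by p-value favours close replicates, so nothing is read from this. The muscle sum spanned 2.61-fold among the wild-type libraries, over which Scn4b spanned 1.06-fold, and 3.73-fold among the ADCY3∆AT libraries, over which Scn4b spanned 1.09-fold. The span in ADCY3∆AT includes Mb, while Ttn alone ran from 1.84 to 292.9 CPM among those libraries. ADCY3∆AT replicate 3 had the highest muscle sum of its group (953.2 CPM) and the lowest Scn4b (26.8 CPM). In wild type the order of the libraries was the same for both. Per 1000 CPM of the muscle list Scn4b had 14.7, 21.2 and 8.6 CPM in wild type, against 111, 44.7 and 28.1 CPM in ADCY3∆AT. The ADCY3∆AT values again rest in large part on Mb, most of all in replicate 1. Over the 6 libraries, Pearson correlations of log2 CPM between Scn4b and the 24 muscle markers had a median of 0.74 (0.579 to 0.978). These values include the difference between the genotypes. Whether the muscle difference between the genotypes has a part in that of Scn4b was not tested.

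**Figure D3:**
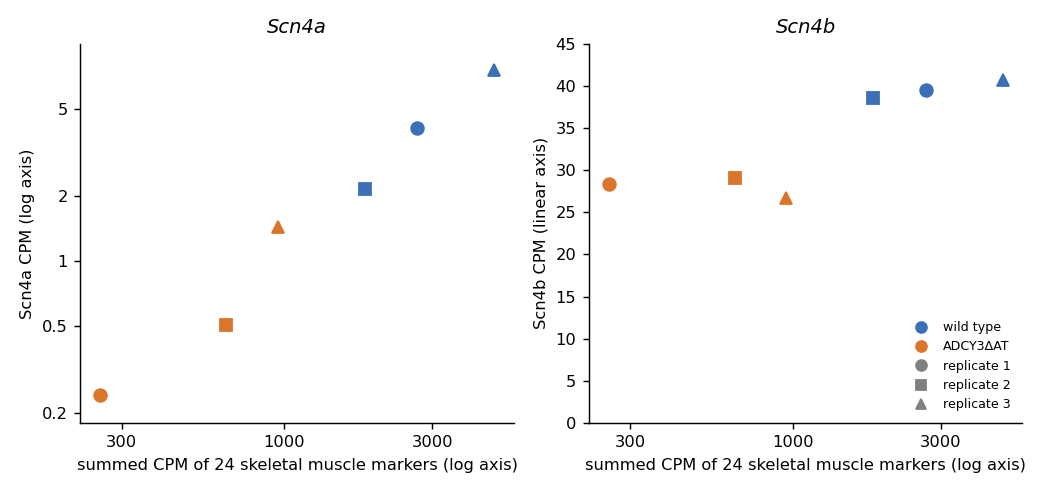
CPM of Scn4a (left, log axis) and Scn4b (right, linear axis from 0) against the summed CPM of 24 skeletal muscle markers (log axis), 1 symbol per library. In ADCY3∆AT replicate 1, Mb makes up 223.3 of the 255.2 CPM on the muscle axis. Scn4a rises along the muscle axis from 0.24 to 7.59 CPM. Scn4b lies at 26.8 to 29.1 CPM in ADCY3∆AT and at 38.6 to 40.8 CPM in wild type. The choice of Scn4b by p-value favours such close levels within a genotype.

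Markers of other cells in which these subunits are known were measured in the same libraries. The 12 Schwann cell markers summed to 256.8 to 265.6 CPM in wild type, against 240.4 to 254.5 CPM in ADCY3∆AT. Most of each sum was S100b, at 168.8 to 179.6 CPM in wild type and 162.7 to 192.4 CPM in ADCY3∆AT. Its log2 fold change was 0.02 ± 0.07 (SE), and that of Sox10 was -0.03 ± 0.46. Of 10 markers tested, 9 had a negative value (median -0.29) and 0 passed in edgeR, DESeq2 or limma voom. An unadjusted p under 0.05 was found for 4, beside 11% of all genes tested. Among these were the myelin genes Pmp22 (log2 fold change -0.42 ± 0.14, SE) and Mbp (-0.23 ± 0.08), and the adhesion molecule Cdh19 (-0.35 ± 0.14). Scn7a, known from Schwann cells, had -0.11 ± 0.10. Neuronal markers were near the floor: the 14 genes summed to 2.33 to 2.86 CPM in wild type, against 2.34 to 3.36 CPM in ADCY3∆AT, and Dbh, Syt1 and Npy were among those at 0 in every library. The 9 heart markers summed to 66.2 to 71.1 CPM in wild type against 69.3 to 86.6 CPM, nearly all of it Ryr2, which with Myl4 made up the 2 genes tested. Nppa, which encodes the atrial natriuretic peptide, was at 0 in every library. The part of these markers in the values of the members was not tested.

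Endothelial and fibroblast markers had medians of 0.14 and 0.13 on the log2 scale. The 10 endothelial markers summed to 1173 to 1247 CPM in wild type, against 1255 to 1347 CPM in ADCY3∆AT. The log2 fold change was positive for 8 of them, with Cdh5 at 0.28 ± 0.07, Cldn5 at 0.81 ± 0.20 and Pecam1 at 0.19 ± 0.06. It was negative for 2, Kdr (-0.04 ± 0.07) and Emcn (-0.07 ± 0.07). Of these 10, 0 passed in edgeR or limma voom, 4 had an unadjusted p under 0.05 (11% of all genes did) and DESeq2 called 1, Cdh5 (adjusted p = 0.0202). The fibroblast markers summed to 440.5 to 553.0 CPM and 544.5 to 594.8 CPM. The sums of smooth muscle and pericyte markers (822.8 to 924.8 CPM and 860.2 to 962.7 CPM) and macrophage markers (135.8 to 217.4 CPM and 153.6 to 228.8 CPM) overlapped between the genotypes. In the smooth muscle list, 6 of 11 genes had a positive value and 5 a negative one (median 0.01). Des, the desmin of smooth and striated muscle, had -0.49 ± 0.13 (SE, DESeq2 adjusted p = 0.0115). Its ADCY3∆AT libraries lay below all wild-type libraries, as in 8.83% of all genes tested. Notch3 had 0.36 ± 0.11 (SE), with ADCY3∆AT libraries above all wild-type libraries, as in 7.68% of all genes tested. Brown adipocyte markers summed to 20605 to 20662 CPM in wild type, against 19528 to 20057 CPM in ADCY3∆AT, with a median log2 fold change of -0.04. Of these 13, 5 had ADCY3∆AT libraries below all wild-type libraries, beside 8.83% of all genes tested. An unadjusted p under 0.05 was found for 2, beside 11% of all genes. None passed in edgeR or limma voom, and DESeq2 called 1. That gene was Elovl3, a fatty acid elongase induced by cold, with -0.38 ± 0.11 (SE, DESeq2 adjusted p = 0.0332). Dio2, the deiodinase that activates thyroid hormone, had -0.75 ± 0.25, with ADCY3∆AT replicate 3 (616.4 CPM) close to the lowest wild-type library (623.1 CPM).

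The genes whose library pattern was most like that of a member were found by Pearson correlation of log2 CPM over the 6 libraries, among 11055 annotated genes whose log2 CPM averaged 1 or more. All points share the libraries and the difference between the genotypes, so the values describe likeness only. For Scn4b these were Itgav, an integrin subunit (r = 0.995), the adenylate kinase Ak6 (0.990), Tmed2 of the early secretory pathway (0.990), Wipf3 (0.984) and the immunoglobulin superfamily member Igsf21 (0.982). Itgav had 41.6 to 43.6 CPM in wild type, against 35.7 to 37.1 CPM in ADCY3∆AT. None of the 5 had overlapping groups, as in 8.83% of all genes tested for groups lower in ADCY3∆AT. This and their negative sign follow from picking genes like Scn4b, so nothing is read from them. Their log2 fold changes ran from -0.54 (Wipf3) to -0.09 (Tmed2), beside -0.50 for Scn4b.

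For Scn4a the most alike were Nprl3 (0.996), Arfgef2 (0.993) and the imprinted noncoding RNA H19 (0.993), which had 10.1, 6.00 and 13.4 CPM in wild type, against 1.53, 3.07 and 4.84 CPM in ADCY3∆AT. Nprl3 and Arfgef2 kept the order of Scn4a with log2 fold changes of -0.17 and -0.09, against -1.64 for H19. For Scn7a they were Wipi1, an autophagy protein (0.993), the mitochondrial carrier Sfxn3 (0.990) and the actin-severing protein Gsn (0.978). Scn2b did not pass the filter on low counts and was not compared in this way.

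Position on the chromosome gave a further view. Scn2b and Scn4b lie on the same strand of chromosome 9 with 8324 bases between them, and Scn7a and Scn9a are neighbours on chromosome 2 with 38462 bases between them. Each pair thus sets a well detected gene beside one at 3 to 10 or 0 to 3 counts per library. Within 200 kb of Scn4b the annotation has 24 further genes in the table, 12 of them protein-coding. Of these 12, 8 stayed under 1 CPM in every library, among them Scn2b, the nearest coding gene on one side, and Tmprss4, a transmembrane protease and the nearest on the other, at 0.0282 CPM in wild type. Scn4b had 39.6 CPM there. The exceptions were Ube4a (77.7 CPM in wild type), Mpzl2 (17.3 CPM), Mpzl3 (10.4 CPM) and Il10ra (2.28 CPM).

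Of the 24 neighbours 8 were tested, and 0 passed in edgeR, DESeq2 or limma voom, with 2 at an unadjusted p under 0.05, a threshold that 11% of all genes passed. These were the ubiquitin ligase Ube4a (log2 fold change -0.22 ± 0.07, SE, edgeR adjusted p = 0.333) and Mpzl3 (-0.23 ± 0.09, edgeR adjusted p = 0.381). In both, the ADCY3∆AT libraries lay below all wild-type libraries, as in 8.83% of all genes tested. Mpzl2, 84379 bases before Scn4b, had -0.11 ± 0.12, and Il10ra, the interleukin-10 receptor subunit, had 0.39 ± 0.17.

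**Figure D4:**
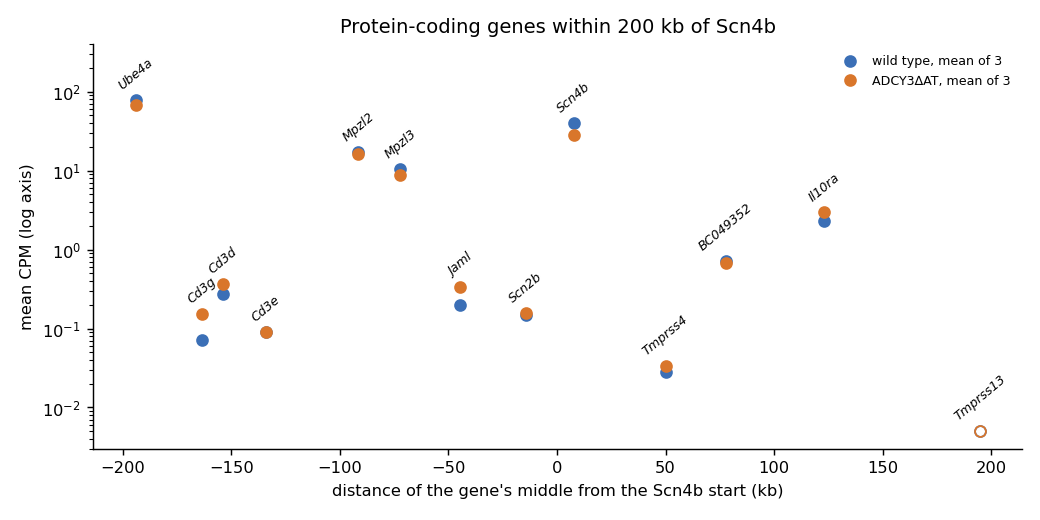
Mean CPM (log axis) of the protein-coding genes within 200 kb of Scn4b, with Scn4b itself, by distance of the gene's middle from the Scn4b start. Blue and orange points are the means of 3 wild-type and 3 ADCY3∆AT libraries, and open symbols mark a gene at 0. Scn4b, at 39.6 and 28.0 CPM, stands between genes that are mostly under 1 CPM.

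Low subunits outside the members overlapped between the genotypes. Scn2a had a log2 fold change of 0.39 ± 0.31 (SE), Scn3a had 0.54 ± 0.48 and Scn8a had 0.49 ± 0.51, and 0 of these passed in edgeR, DESeq2 or limma voom, with 0 at an unadjusted p under 0.05. Scn11a had 1 count in wild type and 6 in ADCY3∆AT, with an exact 95% interval of the ratio from 0.744 to 282. A p that misses the threshold does not show that these genes were equal.

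Proteins that bind, anchor or modify the channels held 34 tested genes of 38, with a median log2 fold change of -0.01. None passed in edgeR (adjusted p from 0.158 upward) or limma voom. An unadjusted p under 0.05 was found for 5 (2 higher, 3 lower), near the share of 11% over all genes tested. DESeq2 called 1. That gene was Cav3, the caveolin of muscle, with a log2 fold change of -2.96 ± 0.53 (SE, DESeq2 adjusted p = 0.0345) and 0.27 to 0.48 CPM in wild type. Ank3, the ankyrin that anchors sodium channels in the axon membrane, had -0.42 ± 0.10 (edgeR adjusted p = 0.223), with 8.66, 8.13 and 10.02 CPM in wild type, against 6.76, 6.71 and 6.61 CPM in ADCY3∆AT. Pkp2, a desmosome protein that interacts with the channel complex in heart, had 0.38 ± 0.09 (edgeR adjusted p = 0.214).

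The sodium pump returns the sodium that channels let in. Of its 12 genes 11 were tested. Of these, 7 had a negative value (median -0.09), 0 passed in edgeR or limma voom, and 4 had an unadjusted p under 0.05, all lower (11% of all genes passed that threshold). The pump subunit Atp1b1 had -0.53 ± 0.16 (SE) and was called in DESeq2 (adjusted p = 0.0393), with 28.2, 31.5 and 28.0 CPM in wild type, against 18.2, 16.1 and 26.3 CPM in ADCY3∆AT, where replicate 3 lay nearest to wild type.

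Other routes of sodium entry and exchange held 11 tested genes of 17, with a median log2 fold change of 0.065. Of these, 6 had a positive value and 5 a negative one. None passed in edgeR, DESeq2 or limma voom. An unadjusted p under 0.05 was found for 4 (1 higher, 3 lower), beside 11% of all genes. The higher one was Slc8b1, with 0.24 ± 0.09 (SE). The sodium-calcium exchanger Slc8a3 had -2.05 ± 0.47 (SE), from 0.36 to 1.09 CPM in wild type against 0.15 to 0.18 CPM. The epithelial channel subunit Scnn1g had -2.06 ± 0.68, from 0.70 to 1.82 CPM in wild type against 0.07 to 0.60 CPM. The cotransporter Slc12a2 had -0.39 ± 0.15 with overlapping groups, since ADCY3∆AT replicate 3 (359.7 CPM) lay within wild type (343.8 to 380.0 CPM).

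Voltage-gated calcium channel subunits, both the pores, which are related to those of sodium channels, and the auxiliary subunits, which are not, held 18 tested genes of 22, with a median of 0.11. None passed in edgeR or limma voom, 6 had an unadjusted p under 0.05 (1 higher, 5 lower), beside 11% of all genes, and DESeq2 called 1. Cacna1s, the voltage sensor of skeletal muscle and also a member of the muscle list, had 8.06, 4.79 and 14.4 CPM in wild type, against 0, 1.02 and 2.00 CPM in ADCY3∆AT. The muscle gamma subunit Cacng6, called in DESeq2 (adjusted p = 0.00747), had -3.03 ± 0.75 (SE), and the alpha2delta subunit Cacna2d3 had -0.60 ± 0.20. Cacna1s and Cacng6 were listed at 0 in ADCY3∆AT replicate 1, so these fitted sizes are uncertain. The muscle sum was lowest in that library, at 255.2 CPM, and its part in the values of Cacna1s, Cacng6 and Cav3 was not tested.

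The immunoglobulin-domain relatives of the beta subunits were all tested, 8 of 8, with a median log2 fold change of 0.02. None passed in edgeR, DESeq2 or limma voom, and 4 had an unadjusted p under 0.05 (1 higher, 3 lower), beside 11% of all genes. The adhesion receptor Cxadr had -0.25 ± 0.06 (SE), Vsig2 had 0.28 ± 0.08, and Mpzl3 is described above among the neighbours of Scn4b.

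**Figure D5:**
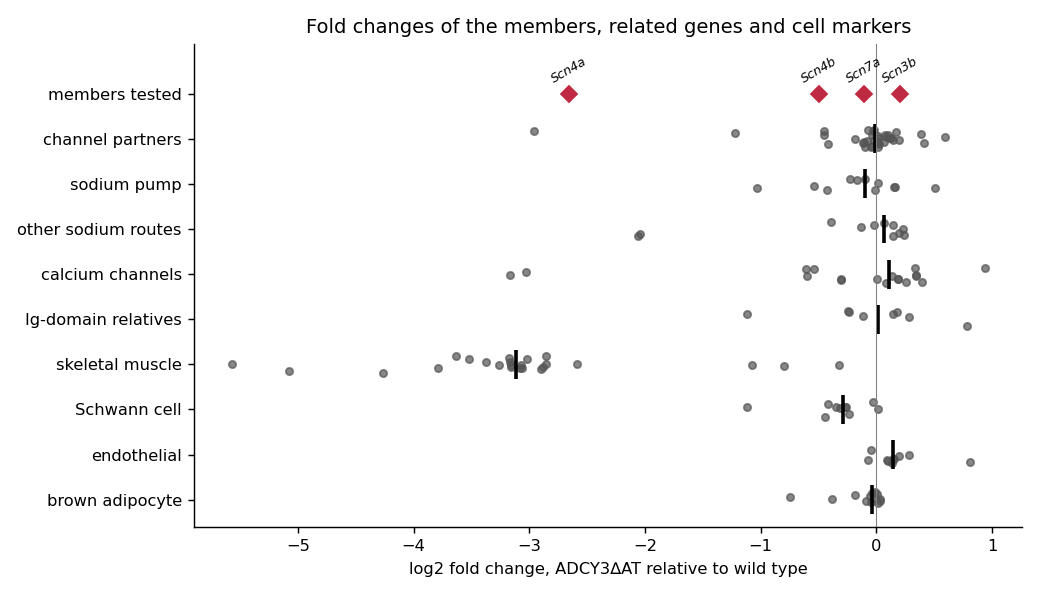
Log2 fold changes of the 4 members tested (diamonds) and of the tested genes of each list (grey points, with the list's median as a bar), ADCY3∆AT relative to wild type. Scn4a at -2.66 lies within the range of the skeletal muscle genes, whose median is -3.12. The medians of the 5 channel, transport and relative lists drawn run from -0.09 to 0.11, with single genes down to -3.16 (Cacna1s). Scn4b, at -0.50, was chosen from this comparison, so nothing is read from its place beside them.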

How the data were processed

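RNA from 3 wild-type and 3 ADCY3∆AT brown fat samples was sequenced as paired-end libraries made with a NEBNext Ultra II kit, per the labels' protocols. The authors deposited estimated counts per Ensembl gene, not normalised, of which 31.6% are not whole numbers. The submitters' processing notes list GRCm38, StringTie, Salmon and edgeR and give neither role nor version. Of 54385 rows, 54131 matched GENCODE M21, and 254 did not (median 0.0271% of a library). Header names matched 1 sample description each.

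Counts were rounded, filtered with filterByExpr, scaled with TMM and tested with edgeR's quasi-likelihood test (edgeR 4.0.16, R 4.3.3), at a Benjamini-Hochberg adjusted p of 0.05. A negative fold change means a lower level in ADCY3∆AT. Its SE follows from the F statistic. Log2 CPM used a prior count of 2. TPM used the summed exon length. DESeq2 1.42.0, limma 3.58.1 (voom), other scalings and filters, and leaving out each library were alternatives. Fits were tested on simulated data. No 2 libraries agreed within sampling noise (chi-square per degree of freedom from 24.1 to 71.5).

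The members and lists were chosen with earlier results of these data known. Named are the members and their family, the 3 genes of a list with the lowest p, the genes most like Scn4b (5), Scn4a and Scn7a (3 each), both coding neighbours of Scn4b, Adcy3 and Ucp1. Cdh19, Kdr, Emcn, Slc8b1, Ttn, Ckm, the other neighbours of Scn4b above 1 CPM and markers at 0 were named after their values were seen. Some genes that this rule names are not reported here.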

Additional observations from a re-analysis of the deposited data

How the results depend on the processing

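The log2 fold change of Scn4b stayed between -0.52 and -0.47 in all 13 alternatives, the lowest and highest of which came from leaving out a library, and it was -0.50 with the replicate number as a block. That of Scn4a ran from -3.60 to -2.10, that of Scn7a from -0.19 to -0.01 and that of Scn3b from 0.08 to 0.48, each negative or positive as in the report and within 1 SD of the replicates. The order of the members per length was the same with the length of the longest transcript. The count of genes called by edgeR, 1 of 18114, was 229 in DESeq2, 2 in limma voom, 214 with no low-count filter, 3 with the replicate block, and from 1 to 66 when a library was left out, with 66 without ADCY3∆AT replicate 3. Of the genes in the 6 channel lists, 0 were called by edgeR, against 3 in DESeq2 (Cav3, Atp1b1 and Cacng6), 3 with no low-count filter (Cav3, Cacna1s and Cacng6), and from 0 to 2 when a library was left out, the 2 being Atp1b1 and Slc12a2 without ADCY3∆AT replicate 3. The cause of these changes was not tested. Same-numbered libraries did not deviate together (correlations from -0.128 to -0.086). In no case were same-numbered libraries each other's best match, so the numbers are not taken as pairs. Depth limits Scn2b and Scn9a, at 10 counts or fewer per library.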
